A study of Mus musculus with 6 samples.

Results

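Immediate early response genes are described here by 10 named genes, chosen by symbol: Egr1, Fos, Fosb, Jun, Junb, Jund, Ier2, Ier3, Ier5 and Dusp1. Of these, 9 had a value in every library and passed the filter on low values, among 14667 genes measured in at least 1 table, and Fosb was not analysed here. The members were picked with their values in these libraries already known, so their levels and differences are given as a description, with no test. All 6 libraries are poly(A) RNA-seq of NE-4C, a mouse neural stem cell line that lacks p53, in which H3f3a, a gene for the histone variant H3.3, was knocked out and an HA-tagged H3.3 was stably put back. The 3 groups held 2 libraries each. Cbfa2t2_KO had wild-type H3.3-HA and a further knockout of Cbfa2t2, a gene for a transcriptional corepressor. H3.3K27M had H3.3-HA with lysine 27 changed to methionine, a change known from childhood midline gliomas. H3.3WT had wild-type H3.3-HA and intact Cbfa2t2, and served both lines as the reference, so the comparisons with H3.3WT share the same libraries. Cells grew in MEM with serum, and the labels do not say whether a line is a single clone, or whether replicates were grown separately, so the spread between them may be technical.

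Immediate early genes are switched on within minutes of a signal such as serum, a growth factor or stress, without new protein synthesis, because the factors that start them are already in the nucleus. The MAP kinase cascade activates SRF with its ternary complex factors and CREB, these induce genes such as Egr1, Fos and Junb, and the transcripts are then lost quickly, often through AU-rich elements in the 3' UTR. FOS proteins pair with JUN proteins to form the transcription factor AP-1, EGR1 binds GC-rich sites, and DUSP1 is a phosphatase that switches MAP kinases off again.

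Values are FPKM as deposited, that is, fragments scaled to transcript length and library size, so that levels may be compared between genes. Only FPKM were used, and the depth behind each value is unknown. Differences are on the log2(FPKM + 1) scale with the standard error (SE) of a limma fit; the added 1 shrinks differences of low genes. Ratios were taken between mean FPKM. Cbfa2t2 itself was low, with 1.02 and 0.769 FPKM in both libraries with the label Cbfa2t2_KO, 2.02 and 0.855 in H3.3K27M and 1.38 and 1.35 in H3.3WT. Its difference between Cbfa2t2_KO and H3.3WT was -0.32 ± 0.16 and did not pass the test (limma, Benjamini-Hochberg adjusted p = 0.153), so the knockout is taken from the label. H3f3a had 82.1 and 66.3 FPKM in Cbfa2t2_KO, 77.3 and 66.8 in H3.3K27M and 131 and 181 in H3.3WT. It fell by 1.05 in Cbfa2t2_KO (limma adjusted p = 0.00501) and by 1.09 in H3.3K27M (limma adjusted p = 0.00708), the second not without H3.3WT replicate 2 (limma adjusted p = 0.0675). Whether these values hold the H3.3-HA transcript is not stated in the labels, and their part in the results was not tested. Neural stem cell markers were measured for 6 of 8, with 70.5 to 80.4 summed FPKM in Cbfa2t2_KO, 93.1 to 99.6 in H3.3K27M and 99.1 to 107 in H3.3WT. Of the 5 tested, 1 rose and 2 fell in Cbfa2t2_KO and 1 rose and 3 fell in H3.3K27M (limma, Benjamini-Hochberg adjusted p under 0.05). Over all genes tested, 13.1% rose and 21.5% fell in Cbfa2t2_KO, and 8.42% rose and 17.8% fell in H3.3K27M. Nes had 24.0 and 18.1, 16.8 and 14.3, and 35.2 and 38.8 FPKM in these groups and fell in both lines, in Cbfa2t2_KO not without its replicate 2 (limma adjusted p = 0.0679). Vim rose in both, by 1.19 in Cbfa2t2_KO and 1.68 in H3.3K27M, and Sox2 fell in Cbfa2t2_KO, with 12.3 and 9.55 FPKM there, 28.1 and 32.2 in H3.3K27M and 30.9 and 34.4 in H3.3WT. Msi1 and Notch1 fell in H3.3K27M, with calls lost without either H3.3WT library or without H3.3K27M replicate 2. Sox1 and Fabp7 were not analysed here. Summed neuron markers, with 4 of 7 measured, stood at 134 to 150.0 FPKM in Cbfa2t2_KO, 76.8 to 81.4 in H3.3K27M and 76.5 to 77.6 in H3.3WT. Most of that sum was Tubb3, with 123 and 139 FPKM in Cbfa2t2_KO, 68.3 and 71.6 in H3.3K27M and 68.9 and 67.4 in H3.3WT. Rbfox3 was instead highest in H3.3WT, with 1.18 and 1.14, 0.702 and 0.571, and 1.83 and 1.64 FPKM in the same order of groups. Stmn2, like Tubb3, was highest in Cbfa2t2_KO, with 8.94 and 9.09, 6.91 and 8.40, and 6.14 and 6.47 FPKM. Syt1, at most 1.18 FPKM, overlapped between Cbfa2t2_KO and H3.3WT. Astrocyte markers, with 2 of 6 measured, stood at 44.7 to 51.2, 38.9 to 40.2 and 16.1 to 25.4 FPKM. 0 of 6 microglia and leukocyte markers had a value, and endothelial markers summed to at most 1.06 FPKM. The part of these marker levels in the results was not tested, and in bulk RNA fewer expressing cells and less RNA per cell cannot be told apart.

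The members did not move as a block. Egr1, Ier2 and Junb stood far lower in Cbfa2t2_KO and in H3.3K27M than in H3.3WT, by 29.5-fold and 36.0-fold for Egr1, 7.31-fold and 5.73-fold for Ier2, and 6.57-fold and 2.86-fold for Junb. Fos was 4.06-fold and 3.32-fold lower and Jund 2.10-fold and 2.06-fold lower. The H3.3WT libraries enclosed those of both lines for Jun, and Ier3 went the other way, 6.09-fold higher in Cbfa2t2_KO and 5.73-fold higher in H3.3K27M. Junb and Ier5 differed most between the lines, with H3.3K27M 2.30-fold and 2.12-fold above Cbfa2t2_KO.

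**Figure D1:**
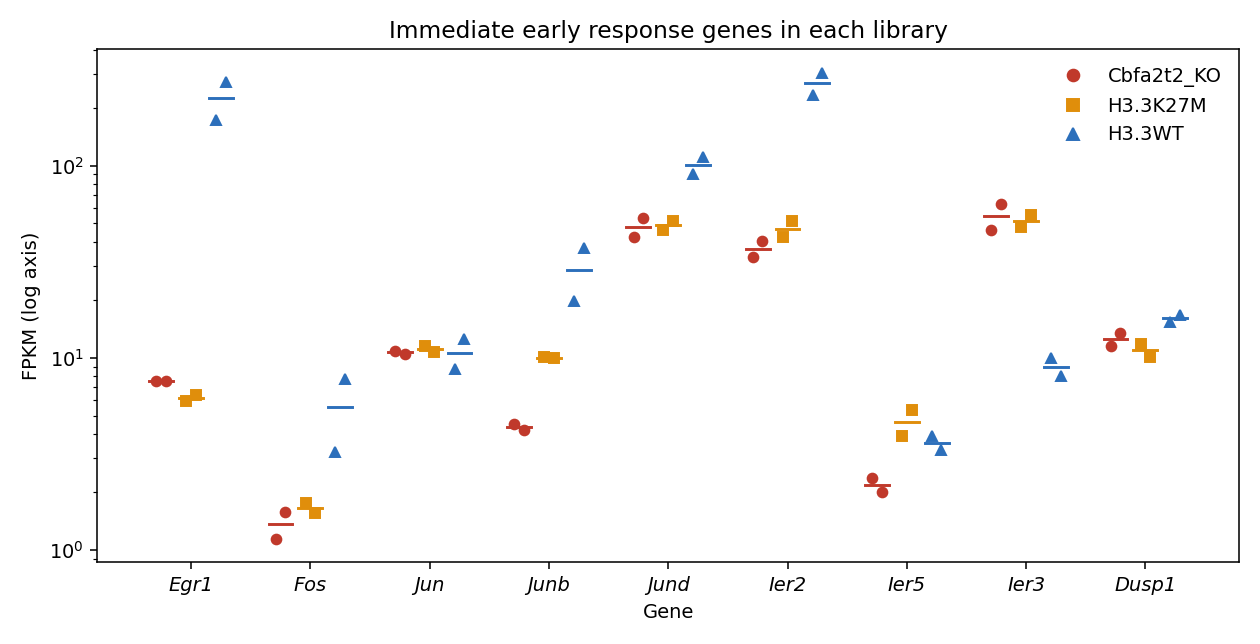
FPKM of the 9 measured members (log axis) in each library of Cbfa2t2_KO (circles), H3.3K27M (squares) and H3.3WT (triangles), with a bar at each group mean of 2 libraries. Egr1 stands at 5.97 to 7.59 FPKM in Cbfa2t2_KO and H3.3K27M and at 173 and 273 in H3.3WT, Ier3 shows the opposite order, and the Jun points of all groups lie together.

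Egr1 encodes a zinc finger transcription factor that is induced by growth signals (ENSMUSG00000038418; GRCm38 chromosome 18, 34859823 to 34864984, forward strand, 3 exons). It had 7.55 and 7.59 FPKM in the Cbfa2t2_KO libraries, 5.97 and 6.43 FPKM in H3.3K27M, and 173 and 273 FPKM in H3.3WT. Both H3.3WT libraries were thus more than an order of magnitude above all 4 others, and the 2 H3.3WT libraries were themselves far apart. The difference was -4.67 ± 0.21 between Cbfa2t2_KO and H3.3WT and -4.93 ± 0.22 between H3.3K27M and H3.3WT. Each was the lowest of all genes tested in its comparison, 11626 and 11623 genes. By level, Egr1 stood at percentile 53.0 of all genes in Cbfa2t2_KO, 48.1 in H3.3K27M and 97.9 in H3.3WT, so it was a mid-range transcript in both altered lines and one of the most abundant in H3.3WT. Between H3.3K27M and Cbfa2t2_KO the difference was -0.25 ± 0.21, with both H3.3K27M libraries just below both Cbfa2t2_KO libraries. Leaving out single libraries gave -5.00 to -4.34 for Cbfa2t2_KO and -5.25 to -4.60 for H3.3K27M.

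Fos, which encodes the FOS partner in AP-1 (ENSMUSG00000021250; chromosome 12, 85473890 to 85477273, forward strand, 4 exons), was the lowest member in most libraries. It had 1.14 and 1.57 FPKM in Cbfa2t2_KO, 1.75 and 1.56 in H3.3K27M, and 3.24 and 7.78 in H3.3WT. All 4 Cbfa2t2_KO and H3.3K27M values lay below both H3.3WT values, which differed from each other by more than either line differed within itself. The difference from H3.3WT was -1.38 ± 0.32 in Cbfa2t2_KO and -1.20 ± 0.31 in H3.3K27M. Without H3.3WT replicate 2 these were -0.85 and -0.67, and without H3.3WT replicate 1 they were -1.90 and -1.73. The difference between H3.3K27M and Cbfa2t2_KO was 0.18 ± 0.30, and those libraries overlapped.

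The stretch from 250 bases before to 50 bases after the RefSeq start of Fos (GRCm38.p6, chr12:85473640-85473939, forward strand) is shown because CREB and the general transcription machinery are known to act on it. Capitals in this promoter and those printed after it mark letter matches on either strand to TGACG, the core of a cAMP response element, and to the CCAAT box. They also mark GGGCGG, the GC box, which reads as its complement where it lies on the opposite strand, and the TATA box TATAAA.
Fos promoter: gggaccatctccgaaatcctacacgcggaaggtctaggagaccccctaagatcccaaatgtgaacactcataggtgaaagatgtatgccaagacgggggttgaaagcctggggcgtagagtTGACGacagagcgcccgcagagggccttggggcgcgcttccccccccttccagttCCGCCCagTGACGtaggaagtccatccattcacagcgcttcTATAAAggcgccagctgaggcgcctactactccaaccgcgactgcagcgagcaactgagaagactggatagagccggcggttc
In Fos, TGACG began at bases -129 and -66 from the start, an opposite-strand GC box lay at -74 and TATAAA at -33. Of 32851 RefSeq promoters of the same length, 20.8% held TGACG, 35.7% GGGCGG and 13.6% TATAAA, overlapping matches included.

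Junb encodes a JUN protein that often acts against c-JUN (ENSMUSG00000052837; chromosome 8, 84974484 to 84978718, reverse strand, 2 exons). It had 4.49 and 4.2 FPKM in Cbfa2t2_KO, 10.1 and 9.95 FPKM in H3.3K27M, and 19.8 and 37.3 FPKM in H3.3WT. The groups formed 3 separate levels, tight in the altered lines and wide in H3.3WT. The difference from H3.3WT was -2.40 ± 0.27 in Cbfa2t2_KO and -1.36 ± 0.27 in H3.3K27M. H3.3K27M was 2.30-fold higher than Cbfa2t2_KO, a difference of 1.04 ± 0.26 that ranked 97 from the highest of 11601 genes and did not leave 1.00 to 1.08 when single libraries were left out. Junb overlaps Prdx2, a peroxiredoxin gene on the opposite strand, and whether counting used strand is not stated in the labels. Prdx2 had 86.2 and 97.6 FPKM in Cbfa2t2_KO, 89.1 and 109 in H3.3K27M and 108 and 93.5 in H3.3WT, with differences from H3.3WT of -0.13 in Cbfa2t2_KO and -0.03 in H3.3K27M.

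The Junb promoter (GRCm38.p6, chr8:84978699-84978998, reverse strand) is shown for the member with a separate level in each line.
Junb promoter: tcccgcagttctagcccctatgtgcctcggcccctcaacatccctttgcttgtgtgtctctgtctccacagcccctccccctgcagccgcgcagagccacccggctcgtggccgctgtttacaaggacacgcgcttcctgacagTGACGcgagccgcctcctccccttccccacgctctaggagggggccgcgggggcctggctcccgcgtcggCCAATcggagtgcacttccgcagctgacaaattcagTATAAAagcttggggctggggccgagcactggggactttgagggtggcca
It held TGACG at -106, CCAAT at -36 and TATAAA at 1, where the first base of the RefSeq transcript counts as 1. That RefSeq start lies 30 bases upstream of the GENCODE start of Junb given above. Counted from the GENCODE start, all of these matches lie upstream of the transcript. CCAAT on either strand was in 37.4% of all promoters.

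Jund, the JUN family member that is usually present without a stimulus (ENSMUSG00000071076; chromosome 8, 70698949 to 70700616, forward strand, 1 exon), was the highest of the family in every library. It had 42.5 and 53.2 FPKM in Cbfa2t2_KO, 46.2 and 51.6 in H3.3K27M, and 90.5 and 111 in H3.3WT. The Cbfa2t2_KO and H3.3K27M libraries overlapped each other and all lay below both H3.3WT libraries. The difference from H3.3WT was -1.06 ± 0.17 in Cbfa2t2_KO and -1.02 ± 0.18 in H3.3K27M, and 0.04 ± 0.17 between H3.3K27M and Cbfa2t2_KO. An opposite-strand gene model, Gm11175, overlaps Jund and was not analysed here.

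Jun encodes c-JUN, the founding JUN protein (ENSMUSG00000052684; chromosome 4, 95049034 to 95052222, reverse strand, 1 exon). It had 10.9 and 10.5 FPKM in Cbfa2t2_KO, 11.6 and 10.7 FPKM in H3.3K27M, and 8.77 and 12.5 FPKM in H3.3WT. The 2 H3.3WT libraries enclosed all 4 others. The differences were 0.02 ± 0.19 for Cbfa2t2_KO against H3.3WT, 0.08 ± 0.21 for H3.3K27M against H3.3WT and 0.06 ± 0.19 for H3.3K27M against Cbfa2t2_KO. Leaving out H3.3WT replicate 1 turned the differences from H3.3WT to -0.21 and -0.15, and leaving out H3.3WT replicate 2 gave 0.26 and 0.31, so these libraries give no direction for Jun. Junos, an RNA gene on the opposite strand, overlaps Jun and was not analysed here.

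The Jun promoter (GRCm38.p6, chr4:95052173-95052472, reverse strand) is set beside those of Fos and Junb as the AP-1 gene without a separation of the groups.
Jun promoter: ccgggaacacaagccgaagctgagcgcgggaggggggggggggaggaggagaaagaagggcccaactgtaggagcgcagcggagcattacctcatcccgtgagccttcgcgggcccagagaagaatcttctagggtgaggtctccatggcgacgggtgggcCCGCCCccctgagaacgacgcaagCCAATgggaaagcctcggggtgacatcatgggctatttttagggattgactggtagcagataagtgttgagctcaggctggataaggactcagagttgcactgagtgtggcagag
It held an opposite-strand GC box at -89 and CCAAT at -65, with no TGACG or TATAAA in this window.

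Because Junb and Jund were lower and Jun was not, the make-up of the family differed between the lines. The summed FPKM of Jun, Junb and Jund was 57.9 and 67.9 in Cbfa2t2_KO, 67.9 and 72.3 in H3.3K27M, and 119 and 161 in H3.3WT. Jun made up 18.8% and 15.4% of this sum in Cbfa2t2_KO, 17.0% and 14.8% in H3.3K27M, and 7.36% and 7.76% in H3.3WT. Its share was thus higher in each altered library than in either H3.3WT library. Junb made up 7.76% and 6.19% in Cbfa2t2_KO, 14.8% and 13.8% in H3.3K27M, and 16.7% and 23.2% in H3.3WT, again with 3 separate levels. Jund made up 73.4% and 78.4% in Cbfa2t2_KO, 68.1% and 71.4% in H3.3K27M, and 76.0% and 69.0% in H3.3WT. Its share in H3.3WT overlapped that of each line, while both H3.3K27M libraries lay below both Cbfa2t2_KO libraries. These shares are of FPKM sums and rest on the same values as the levels above.

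**Figure D2:**
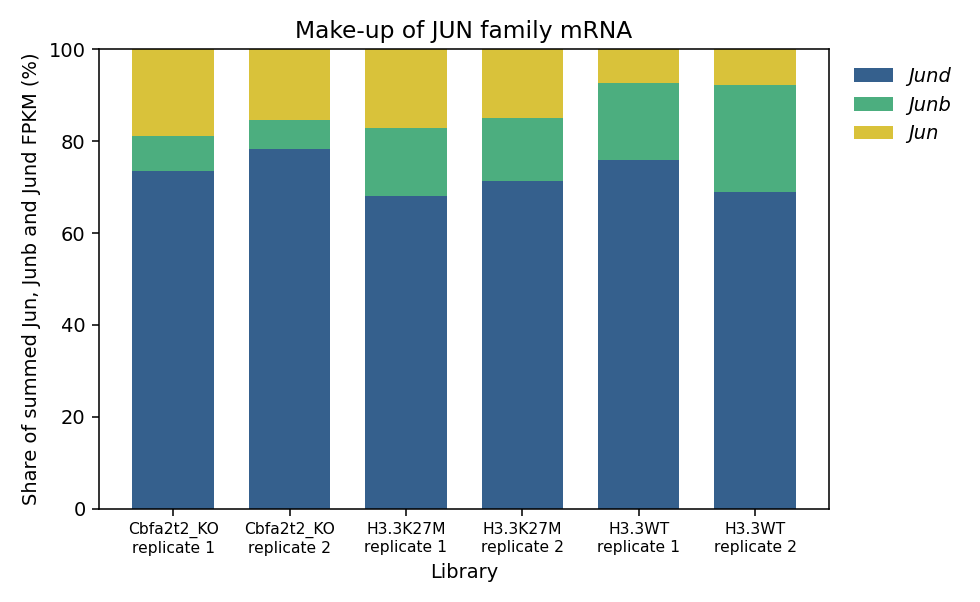
Share (%) of Jund, Junb and Jun in the summed FPKM of the 3 genes, 1 bar per library, from Cbfa2t2_KO through H3.3K27M to H3.3WT. The Jun segment spans 14.8% to 18.8% in the Cbfa2t2_KO and H3.3K27M libraries and 7.36% and 7.76% in H3.3WT, and the Junb segment is narrowest in Cbfa2t2_KO.

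Ier2 encodes a small nuclear protein named for its immediate early response (ENSMUSG00000053560; chromosome 8, 84661331 to 84662852, reverse strand, 1 exon). It had 33.3 and 40.3 FPKM in Cbfa2t2_KO, 42.2 and 51.7 in H3.3K27M, and 234 and 304 in H3.3WT. Both H3.3WT libraries were several times above all others, and Ier2 was the most abundant member in both. The difference from H3.3WT was -2.83 ± 0.17 in Cbfa2t2_KO and -2.49 ± 0.20 in H3.3K27M, which ranked 8 and 10 from the lowest of all genes tested. H3.3K27M was higher than Cbfa2t2_KO in both libraries, by 0.34 ± 0.19.

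Ier5, a relative of Ier2 that is linked to the heat shock factor HSF1 (ENSMUSG00000056708; chromosome 1, 155096361 to 155099636, reverse strand, 1 exon), was low in all libraries. It had 2.37 and 2.0 FPKM in Cbfa2t2_KO, 3.91 and 5.34 FPKM in H3.3K27M, and 3.91 and 3.3 FPKM in H3.3WT. Cbfa2t2_KO lay below the others, while the lower H3.3K27M library and the higher H3.3WT library were equal to 3 digits. The difference was -0.53 ± 0.18 for Cbfa2t2_KO and 0.28 ± 0.21 for H3.3K27M against H3.3WT. The second value was 0.10 without H3.3K27M replicate 2 and 0.47 without H3.3K27M replicate 1. H3.3K27M was 2.12-fold higher than Cbfa2t2_KO, a difference of 0.81 ± 0.20 that ranked 267 from the highest of 11601 genes.

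Ier3, also called IEX-1, encodes a regulator of cell survival that is induced by stress and NF-kappaB (ENSMUSG00000003541; chromosome 17, 35821684 to 35822923, forward strand, 2 exons). It had 46.4 and 63.1 FPKM in Cbfa2t2_KO, 47.9 and 55.1 FPKM in H3.3K27M, and 10.0 and 7.99 FPKM in H3.3WT. Here the altered lines were high and overlapped each other, and both H3.3WT libraries were low. The difference from H3.3WT was 2.47 ± 0.19 in Cbfa2t2_KO and 2.40 ± 0.18 in H3.3K27M, which ranked 7 and 6 from the highest of all genes tested. Between H3.3K27M and Cbfa2t2_KO it was -0.07 ± 0.19.

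The Ier3 promoter (GRCm38.p6, chr17:35821463-35821762, forward strand) is shown for the member that was higher in both lines.
Ier3 promoter: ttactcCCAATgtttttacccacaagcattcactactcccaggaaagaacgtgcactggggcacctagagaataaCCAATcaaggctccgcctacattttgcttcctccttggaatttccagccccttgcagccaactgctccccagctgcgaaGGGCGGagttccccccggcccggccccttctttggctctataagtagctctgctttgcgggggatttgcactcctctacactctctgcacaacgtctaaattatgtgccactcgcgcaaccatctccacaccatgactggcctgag
It held CCAAT at -244 and -175 and a GC box at -96, and no TGACG or TATAAA.

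Dusp1, the MAP kinase phosphatase gene of the set (ENSMUSG00000024190; chromosome 17, 26505590 to 26562128, reverse strand, up to 6 exons, with a long transcript model included), lay below H3.3WT by a small margin in both lines. It had 11.5 and 13.4 FPKM in Cbfa2t2_KO, 11.8 and 10.1 in H3.3K27M, and 15.4 and 16.6 in H3.3WT. All values of both lines were below those of H3.3WT and overlapped each other. The difference from H3.3WT was -0.34 ± 0.16 in Cbfa2t2_KO and -0.51 ± 0.18 in H3.3K27M, and quantile normalization gave -0.20 and -0.31. Between H3.3K27M and Cbfa2t2_KO it was -0.17 ± 0.17. The long Dusp1 model overlaps Ergic1 on the opposite strand, which had 22.9 and 23.2 FPKM in Cbfa2t2_KO, 24.8 and 21.5 in H3.3K27M and 27.4 and 28.9 in H3.3WT, with a difference from H3.3WT of -0.27 in both lines.

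The Dusp1 promoter (GRCm38.p6, chr17:26508423-26508722, reverse strand) is shown as the member promoter with a full cAMP response element.
Dusp1 promoter: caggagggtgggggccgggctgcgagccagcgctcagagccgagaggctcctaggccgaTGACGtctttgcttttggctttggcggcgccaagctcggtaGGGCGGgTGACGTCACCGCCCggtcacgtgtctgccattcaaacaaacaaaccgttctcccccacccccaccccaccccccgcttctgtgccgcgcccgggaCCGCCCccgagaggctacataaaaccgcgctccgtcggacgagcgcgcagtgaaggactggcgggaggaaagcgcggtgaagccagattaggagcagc
The palindrome TGACGTCA, which holds TGACG on both strands, began at -143, and was found in 1.79% of all promoters. A further TGACG lay at -191, and GC boxes at -150 and, on the opposite strand, at -135 and -48. The RefSeq start of Dusp1 lies inside the long GENCODE model. Of 6 members searched (Fos, Jun, Junb, Ier3, Ier5 and Dusp1), none held the CArG box bound by SRF, the AP-1 site TGANTCA or the EGR site GCGNGGGCG, which 1.63%, 7.81% and 5.55% of all promoters held. Variants of the patterns, such as TGACATCA in the Jun window, were not searched, so their absence is not shown. Ier5 had opposite-strand CCAAT at -108 and -46 and GC boxes at -99 and -75. The RefSeq start of Jund lies 1210 bases upstream of the GENCODE start given above, so the window there is not described. Promoter GC ranged from 54.0% in Ier3 to 67.0% in Dusp1, against a median of 52.7% over all promoters. Sites further from the start are outside these windows.

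Set beside each other, 1 of the 9 members was higher and 7 were lower in both Cbfa2t2_KO libraries than in both H3.3WT libraries, and 1, Jun, overlapped. The same complete separation held for 28.5% of all genes tested as higher and 42.0% as lower. In H3.3K27M 2 members, Ier3 and Ier5, were higher than H3.3WT without overlap, 6 were lower and 1 overlapped, against 25.1% and 41.3% of all genes. For H3.3K27M against Cbfa2t2_KO, 3 members were higher (Junb, Ier2 and Ier5), 1 was lower (Egr1) and 5 overlapped, against 26.7% and 31.5% of all genes. The counts against H3.3WT come from the contrasts on which the members were chosen, so nothing is read from them. The median difference of the members was -1.06 in Cbfa2t2_KO and -1.02 in H3.3K27M against H3.3WT, and 0.06 between H3.3K27M and Cbfa2t2_KO, beside -0.11, -0.12 and -0.02 for all genes tested. Median-of-ratios scaling, which brought the medians over all genes against H3.3WT to near 0, turned the sign of no member. Since the shared H3.3WT libraries enter both comparisons, a difference in both lines and the state of those libraries cannot be told apart.

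**Figure D3:**
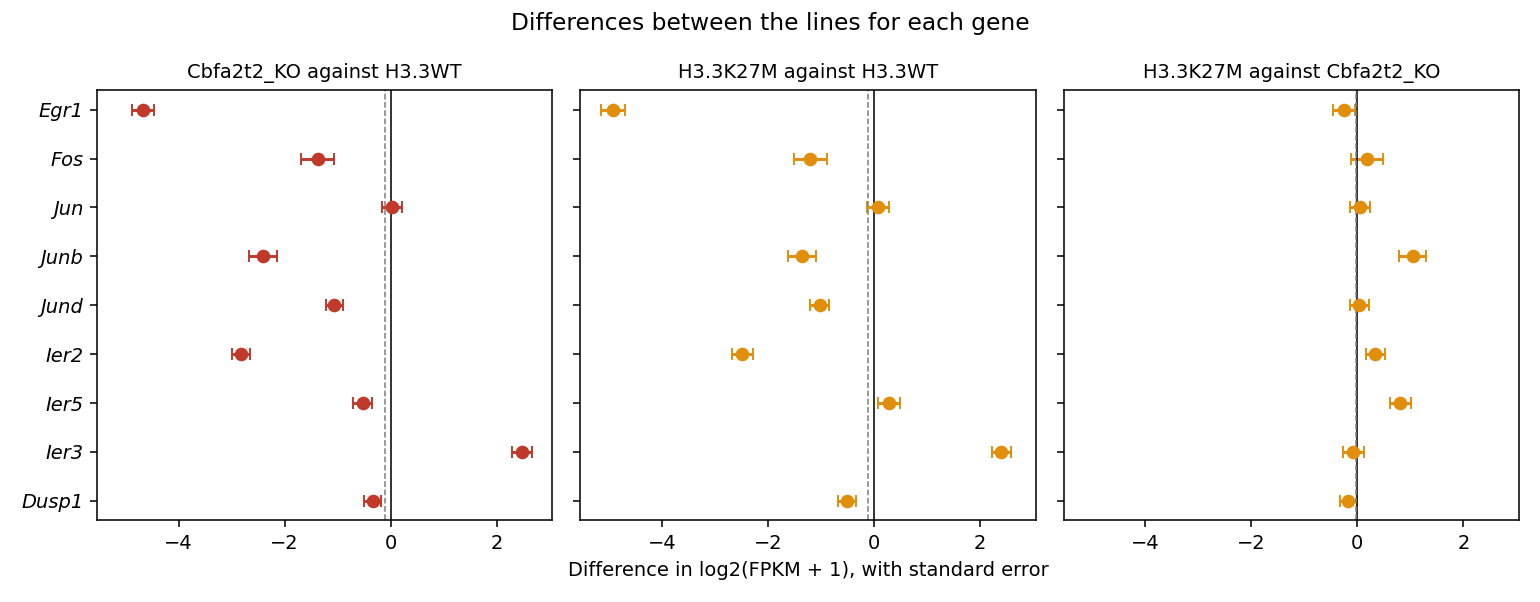
Difference in log2(FPKM + 1) of each member with its SE (bars), for Cbfa2t2_KO against H3.3WT, H3.3K27M against H3.3WT and H3.3K27M against Cbfa2t2_KO, with a dashed line at the median of all genes tested. Egr1 lies farthest left at -4.67 and -4.93 and Ier3 farthest right at 2.47 and 2.40 in the panels against H3.3WT, while the panel of H3.3K27M against Cbfa2t2_KO has its largest difference, 1.04, at Junb.

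The members also differed between replicates, and most in H3.3WT. There 7 of 9 were higher in replicate 2 than in replicate 1, with a median difference of 0.38 on the log2(FPKM + 1) scale, where 55.2% of all genes were higher and the median was 0.03. Fos differed by 1.05, Junb by 0.88, Egr1 by 0.66, Jun by 0.47, Ier2 by 0.38 and Jund by 0.29, and Ier5 and Ier3 by -0.19 and -0.29. All 8 lay outside the quartiles of all genes (-0.14 to 0.20), and Dusp1, at 0.11, lay inside. Between replicates the median of the members was 0.21 in Cbfa2t2_KO and 0.09 in H3.3K27M. Ier3 had the largest replicate difference in Cbfa2t2_KO, 0.44, and Ier5 in H3.3K27M, 0.37.

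By level, the order of the members changed with the line. Ier3 was the highest in every Cbfa2t2_KO and H3.3K27M library, followed by Jund or Ier2, whereas Ier2, Egr1 and Jund led in both H3.3WT libraries. The summed FPKM of the 9 members was 160.2 and 196 in Cbfa2t2_KO, 181 and 203 in H3.3K27M, and 559 and 774 in H3.3WT. Egr1 and Ier2 alone made up 4.71% and 20.8%, and 3.88% and 20.6%, of that sum in the Cbfa2t2_KO libraries. In H3.3K27M their shares were 3.29% and 23.3%, and 3.17% and 25.5%, and in H3.3WT they were 31.0% and 41.9%, and 35.3% and 39.3%. Ier3 made up 29.0% and 32.2% in Cbfa2t2_KO, 26.4% and 27.2% in H3.3K27M, and 1.79% and 1.03% in H3.3WT. Neighbours in the order did not always differ beyond their spread: Jund and Ier3 overlapped in Cbfa2t2_KO and H3.3K27M, as did Jun and Dusp1 in H3.3K27M.

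Features outside the measured levels were read from GENCODE vM21 on GRCm38. Jun, Jund, Ier2 and Ier5 have a single exon, as do 2.51% of the 10198 protein-coding genes tested, and 7 of 9 members have at most 3 exons, against 11.6%. The pentamer ATTTA, the core of AU-rich elements, occurs 5 times in the 3' UTR of Ier3, 4 times in those of Fos, Jun and Dusp1, 2 times in those of Egr1, Junb and Ier5, 1 time in that of Jund, and 0 times in that of Ier2. At least 4 copies were present in 4 of 9 members and in 26.5% of the genes tested. Because genes with 2 to 3 exons had a median difference of -0.34 in Cbfa2t2_KO and -0.39 in H3.3K27M against H3.3WT, members were also set against genes of their own exon number. Egr1 then stood at -4.33 and -4.54, Junb at -2.06 and -0.97, and Ier3 at 2.81 and 2.79.

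For the 2 members at the ends of the range, the genes with the most similar profile over the 6 libraries were found among 11353 genes, by the Euclidean distance between log2(FPKM + 1) values centred on each gene's mean. The nearest to Egr1 were mt-Tw (distance 1.65), Gadd45g (2.19), mt-Tm (2.46), mt-Ts1 (2.55) and Ier2 (2.56), where a flat profile lies at 5.57. Gadd45g, a stress-inducible gene, averaged 5.21 ± 0.39 FPKM in Cbfa2t2_KO, 3.91 ± 1.43 in H3.3K27M and 41.4 ± 3.94 in H3.3WT (SD, n = 2 each). The mitochondrial tRNA gene mt-Tw averaged 6.03 ± 0.678 FPKM in Cbfa2t2_KO, 9.27 ± 3.89 in H3.3K27M and 103 ± 22.8 in H3.3WT, and such tRNAs are captured poorly by poly(A) selection. Nearest to Ier3 were Krt8 (0.85), Bhlhe40 (0.85), Sept4 (0.89), Tomm5 (0.91) and Acat2 (0.97), where a flat profile lies at 2.84. Bhlhe40 averaged 36.2 ± 1.91 FPKM in Cbfa2t2_KO, 34.2 ± 5.29 in H3.3K27M and 8.81 ± 1.15 in H3.3WT. These distances describe 6 libraries of 3 groups.

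Beside the members, 39 other immediate early genes were listed, of which 37 had a value and 28 passed the filter. This list, like the other gene lists here, was chosen with earlier results of these data known. Its counts and p-values therefore describe these libraries and are not independent evidence. Against H3.3WT, 15 fell and 2 rose in Cbfa2t2_KO, and 12 fell and 3 rose in H3.3K27M (limma, Benjamini-Hochberg adjusted p under 0.05). Over all genes 21.5% fell and 13.1% rose in Cbfa2t2_KO, and 17.8% fell and 8.42% rose in H3.3K27M. The median difference was -0.58 in Cbfa2t2_KO and -0.55 in H3.3K27M, beside -0.11 and -0.12 for all genes. When single libraries were left out, 10 of the 15 falls in Cbfa2t2_KO and 6 of the 12 in H3.3K27M held in every case. The number of falls in H3.3K27M was 6 without H3.3WT replicate 2, and 8 without H3.3WT replicate 1 or H3.3K27M replicate 2. In Cbfa2t2_KO it was 8 with a mean of at least 5 FPKM required.

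In Cbfa2t2_KO the largest fall was that of Ctgf, a matricellular gene driven by YAP and SRF, with 0.132 ± 0.00126 FPKM against 9.73 ± 2.45 in H3.3WT (-3.23 ± 0.20, limma adjusted p = 0.000187). Ctgf passed the filter on low values here only through H3.3WT, so its fall and p-value are not read further. Gadd45g fell by 2.77 (adjusted p = 0.000118), Ier5l, a paralog of Ier5, by 1.44 (adjusted p = 0.00142), Myc by 1.43 (adjusted p = 0.00402), the bZIP repressor Nfil3 by 1.35 (adjusted p = 0.00136) and Atf3, a stress-induced partner of JUN, by 1.29 (adjusted p = 0.00164), all by limma. The genes that rose were Bhlhe40, a clock and hypoxia repressor (1.93 ± 0.15, limma adjusted p = 0.000409), and Klf2 (1.35 ± 0.18, adjusted p = 0.00162), a zinc finger factor. These 8 calls held without any single library.

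In H3.3K27M the largest fall was that of Gadd45g, with 3.91 ± 1.43 FPKM against 41.4 ± 3.94 in H3.3WT (-3.14 ± 0.23, limma adjusted p = 0.000776). Nfil3 fell by 1.49, Rhob, a small GTPase gene, by 1.41, Cyr61, a relative of Ctgf, by 1.31, Ier5l by 1.31 and Klf10 by 1.08, the last not without H3.3WT replicate 2 (limma adjusted p = 0.0561). Klf2 (1.90 ± 0.19, adjusted p = 0.00122) and Bhlhe40 (1.84 ± 0.19, adjusted p = 0.00128) rose by limma. Set against Cbfa2t2_KO, H3.3K27M had 4 of these genes higher and 2 lower of 28 (3.12% and 4.68% of all genes). Ctgf, with 5.58 ± 0.0404 FPKM in H3.3K27M against 0.132 ± 0.00126 in Cbfa2t2_KO (2.54 ± 0.20, limma adjusted p = 0.00122), was the 1 call that held without any single library. In this fit Ctgf passed the filter only through H3.3K27M and H3.3WT, so this call is not read further either. Myc, Sgk1 and Nr4a1 were higher by 1.44, 1.09 and 0.75 and Per1 and Cyr61 differed by -0.96 and -0.71, each with a call that was lost without at least 2 of the libraries, among them Cbfa2t2_KO replicate 2.

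**Figure D4:**
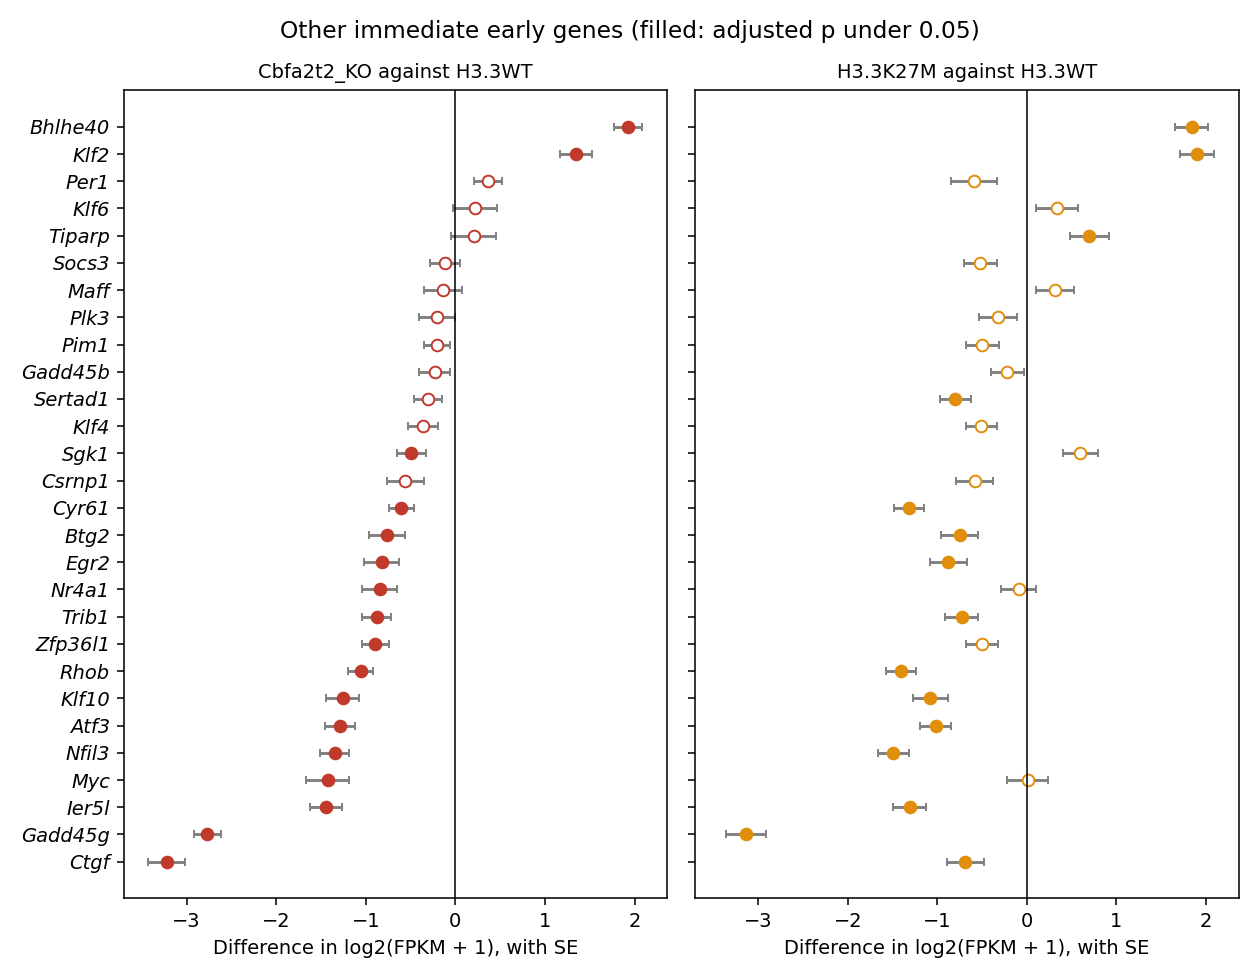
Difference in log2(FPKM + 1) with its SE (bars) for the 28 tested genes of the list of other immediate early genes, Cbfa2t2_KO against H3.3WT on the left and H3.3K27M against H3.3WT on the right. Filled points passed an adjusted p of 0.05 (limma), and most of them lie left of 0, with Bhlhe40 and Klf2 on the right in both panels and Myc at -1.43 on the left and 0.01 on the right.

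Genes that act on the same pathway were counted in the same fits. Over all genes tested, 21.5% fell and 13.1% rose in Cbfa2t2_KO, and 17.8% fell and 8.42% rose in H3.3K27M. Several of the counts below are near those shares, and no list was tested as a set. Of 15 tested MAP kinase phosphatases and ERK feedback inhibitors, 5 fell and 0 rose in Cbfa2t2_KO. The largest fall there was that of Dusp7 (6.56 ± 0.235 FPKM against 22.5 ± 1.20 in H3.3WT, limma adjusted p = 0.000611). In H3.3K27M 5 fell, with the largest fall in Spred3 (2.72 ± 0.442 FPKM against 8.28 ± 0.187 in H3.3WT, limma adjusted p = 0.00309). Spry1 was the 1 that rose, a call lost without any one of the libraries. Of those 5 falls, 3 in Cbfa2t2_KO and 2 in H3.3K27M held when any single library was left out. Dusp2, 1 of the 5 in each line, averaged 0.523 FPKM in Cbfa2t2_KO, 0.551 in H3.3K27M and 1.52 in H3.3WT. It passed the filter on low values only through H3.3WT, so its fall is not read further. Of 13 tested genes of SRF, CREB and their cofactors, 3 fell in Cbfa2t2_KO, led by Atf1 (-1.28 ± 0.15, adjusted p = 0.00124), and 1 fell in H3.3K27M, Srf (-0.86 ± 0.16, limma adjusted p = 0.00722). The call of Srf in H3.3K27M was lost without H3.3WT replicate 2. Srf was also 1 of the 3 that fell in Cbfa2t2_KO (limma adjusted p = 0.00198). It averaged 18.4 ± 1.22 FPKM there against 37.9 ± 1.96 in H3.3WT, and that call held when any single library was left out. Of 20 tested kinases of the MAP kinase cascade, 4 rose and 3 fell in Cbfa2t2_KO, and 2 rose and 4 fell in H3.3K27M. Of these calls, 1 rise in each line and 0 falls held when any single library was left out.

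The same shares of all genes apply to the lists that follow. Among 9 growth factor receptors tested, 2 rose and 4 fell in Cbfa2t2_KO and 3 fell in H3.3K27M. Of these calls, 3 falls in Cbfa2t2_KO and 0 in H3.3K27M held when any single library was left out. Pdgfrb, a platelet-derived growth factor receptor and 1 of those 3, fell to 0.908 ± 0.0347 FPKM in Cbfa2t2_KO, against 2.87 ± 0.205 in H3.3WT (limma adjusted p = 0.00313). It passed the filter on low values there only through H3.3WT, so its fall and p-value are not read further. Of the bZIP partners of AP-1, 4 of 9 tested fell in Cbfa2t2_KO and 2 of 10 in H3.3K27M, and 2 in each line held when any single library was left out. Atf4, the largest fall of this list in Cbfa2t2_KO, had 244 ± 13.7 FPKM against 517 ± 38.1 in H3.3WT (limma adjusted p = 0.00165). Of 15 tested factors that act on the decay or stability of AU-rich mRNAs, 1 rose and 1 fell in Cbfa2t2_KO and 1 rose in H3.3K27M. The calls of both that rose, Parn in Cbfa2t2_KO and Hnrnpd in H3.3K27M, were lost without at least 2 of the single libraries (limma adjusted p up to 0.118 and 0.158). Elavl1, which binds and stabilises such mRNAs, fell by 1.23 in Cbfa2t2_KO (limma adjusted p = 0.00163). Of 9 heat shock genes, 1 rose and 3 fell in Cbfa2t2_KO and 3 rose and 3 fell in H3.3K27M, and of these 2 falls in Cbfa2t2_KO and 1 rise in H3.3K27M held when any single library was left out. Of the cytoskeletal targets of SRF and MRTF, 3 rose and 4 fell of 12 in Cbfa2t2_KO and 4 rose and 1 fell of 13 in H3.3K27M. Of these calls, 2 rises and 1 fall in Cbfa2t2_KO and 1 rise in H3.3K27M held when any single library was left out. Cnn2, a calponin gene, rose most in both, by 1.27 ± 0.14 and 1.59 ± 0.16 (limma adjusted p = 0.00102 and 0.00128).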

How the data were processed

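The deposited values are FPKM per gene, computed by the authors, split over a table with the Cbfa2t2_KO and another with the H3.3K27M libraries, each beside H3.3WT. Per the labels' protocols, RNA was isolated with Trizol, poly(A) RNA was selected on oligo(dT) and primed at random. Per the submitters' processing notes, the tools included HISAT2, StringTie, Trim Galore and DESeq, and the build named is GRCm38. Versions, annotation release and strand are not given in the sources used here. The tables hold 14431 and 14318 genes, each with at least 0.500 FPKM in 1 library, and summed FPKM ran from 363604 to 419389 per library. For the 14082 genes in both tables, H3.3WT had equal values in each. H3.3K27M columns were recognised by the letter M alone, and replicate numbers only name libraries.

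Genes that averaged 1 FPKM or more entered a linear model of log2(FPKM + 1) in limma 3.58.1 (R 4.3.3, eBayes with trend) and p-values adjusted by Benjamini-Hochberg over all genes, called below 0.05. Fits against H3.3WT used 4 libraries, and the fit of H3.3K27M against Cbfa2t2_KO used all 6. The smallest two-sided p of an exact permutation test with 2 libraries a group is 0.333, hence the use of limma. All p-values reflect the spread among these libraries alone, which may be technical. On simulated data the fit recovered most changed genes where their spread was that of the fit, and a minority where it came from the H3.3WT pair. In the first of these settings the fit also called some unchanged genes.

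The members and gene lists were chosen with earlier results of these data known, and no member carries a p-value. Named were all members; of each list the called gene with the largest rise and fall per comparison (2 FPKM or more in the higher group), in part given here; up to 6 more of the other immediate early genes; and the 5 nearest profiles to Egr1 and Ier3. GENCODE vM21, which held 14646 of 14667 gene IDs, gave coordinates, exons and 3' UTRs, and RefSeq (GRCm38.p6) gave promoters. Motifs were searched on both strands. Alternatives covered the pseudocount, the filter, scaling, the spread model and leaving out each library. Plots were made with Python 3.11.15 and matplotlib 3.10.9.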

Additional observations from a re-analysis of the deposited data

How the results depend on the processing

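Leaving out single libraries gave 1915 to 3038 genes past the threshold for Cbfa2t2_KO against H3.3WT (4028 with all libraries; 1915 without Cbfa2t2_KO replicate 2 and 2236 without H3.3WT replicate 2), 1007 to 2790 for H3.3K27M against H3.3WT (3049; 1007 without H3.3WT replicate 2), and 29 to 786 for H3.3K27M against Cbfa2t2_KO (905; 29 without Cbfa2t2_KO replicate 2). With 1 library left in a group, its spread is assumed to be like that of the other group. Other immediate early genes that fell numbered 8 in Cbfa2t2_KO with a mean of at least 5 FPKM, where fewer genes are tested (15 at 1 FPKM), and 6 to 11 in H3.3K27M without single libraries (12 with all). Of all calls, 37.9% were higher in Cbfa2t2_KO and 32.1% in H3.3K27M, against 50.8% and 48.9% with median-of-ratios scaling and 50.2% and 50.6% with quantile normalization, while 14 and 10, and 14 and 9, other immediate early genes still fell. No member difference beyond its SE turned round under any alternative run. No paired analysis was possible because the replicate numbers only name libraries and pair none across groups. Depth is unknown, so the counting error of low genes such as Fos and Ier5 cannot be given.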
